A study of Homo sapiens with 10 samples.

Results

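The non-coding snoRNA host genes were examined in a poly(A) 3′-seq peak list from IMR-32 cells, a human neuroblastoma line. Members were the GENCODE 44 genes whose symbol is SNHG (small nucleolar RNA host gene) followed by digits, together with GAS5, ZFAS1, EPB41L4A-AS1 and DANCR. This gave 32 genes of 62663, all annotated as long non-coding RNA (lncRNA) genes. A peak was counted for a member when its summit lay in the gene body or up to 600 bp past the 3′ end, and 214 of the 178837 peaks did so.

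The 10 libraries came from IMR-32 cells transduced with lentivirus carrying pLKO.1 short hairpin RNAs and selected with puromycin, a background that every group shared. Of these, 4 libraries carried hairpins against CDK12 (CDK12 sh22 and CDK12 sh98, 2 libraries each), 4 carried hairpins against CDK13 (CDK13 sh701 and CDK13 sh704, 2 each) and 2 carried the control hairpin shGFP. CDK12 and CDK13 are kinases of the RNA polymerase II tail, and the experiment asks where transcripts end when either is depleted. The authors downsampled the libraries, merged all 10 and called peaks once, so the list holds 1 pooled value per peak, and neither the knockdowns, the replicates nor the 2 processing batches can be compared. IMR-32 is 1 cell line, and nothing here separates RNA per cell from the number of cells.

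A snoRNA host gene carries small nucleolar RNAs inside its introns. The transcript is spliced, the intron lariat is opened, and exonucleases trim the intron back to the ends of the snoRNA, which its bound proteins protect. C/D snoRNAs guide 2′-O-methylation of ribosomal RNA and H/ACA snoRNAs guide pseudouridylation, while their relatives in Cajal bodies (scaRNAs) act on spliceosomal RNAs. The spliced host RNA of most non-coding hosts is polyadenylated and short-lived, and several of them, GAS5 among them, begin with a terminal oligopyrimidine tract like the mRNAs of ribosomal proteins.

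Each peak has a pileup, the number of distinct positions at which extended reads covered the summit. It was recovered here from the deposited fold and p-value, it cannot exceed 200, and its median over all peaks was 9. A pileup is a level of read positions from the pool and has no spread between libraries, so genes that are neighbours in an order of pileups cannot be told apart. The labelled cell type was checked on markers. All 7 markers of adrenergic neuroblastoma had a peak at a transcript end, from 17 at DBH to 73 at MYCN, beside 68.7% of all protein-coding genes. The median over protein-coding genes with such a peak was 23, and TH (21) and DBH lay below it. COL1A1 and EPCAM, markers of other cell types, also had one, at 14 and 13, close to DBH, and PTPRC had none.

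Peaks at a transcript end were found in 29 of the 32 host genes (90.6%, 95% Wilson interval 75.8% to 96.8%). Such a terminal peak has its summit between 200 bp upstream and 600 bp downstream of an annotated transcript end. SNHG9, SNHG18 and SNHG27 had no peak of any class. Among the 18834 other lncRNA genes, 40.8% had a peak and 20.7% a terminal peak, among 20033 protein-coding genes 77.2% and 68.7%, and among 263 protein-coding genes with a snoRNA in an intron 97.0% and 87.5%. Intervals cover counting error only.

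A strong terminal peak, taken as one whose q-value on the −log10 scale reached 20, was present in 20 of the 32 host genes (62.5%, 45.3% to 77.1%). The same was true of 2.94% of the other lncRNA genes, 34.5% of the protein-coding genes and 60.8% of the protein-coding snoRNA hosts. The host genes are annotated with more ends than other lncRNA genes, with a median of 9 distinct transcript ends per gene against 1, and each end adds a terminal window. With 1 transcript per gene, 18 of the 32 host genes kept a terminal peak (56.3%, 39.3% to 71.8%), beside 16.4% of the other lncRNA genes, 59.3% of the protein-coding genes and 70.7% of the protein-coding snoRNA hosts. Under that rule 7 host genes had a strong one (21.9%, 11% to 38.8%), beside 2.03%, 24.3% and 40.3% of the same 3 sets. Counting only summits that fall to no other gene on either strand, 12 host genes had a terminal peak (37.5%, 22.9% to 54.7%), beside 8.35%, 48.8% and 73.0% of those sets. Under this rule 9 had a strong one (28.1%, 15.6% to 45.4%), beside 1.05%, 22.0% and 45.2%.

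**Figure D1:**
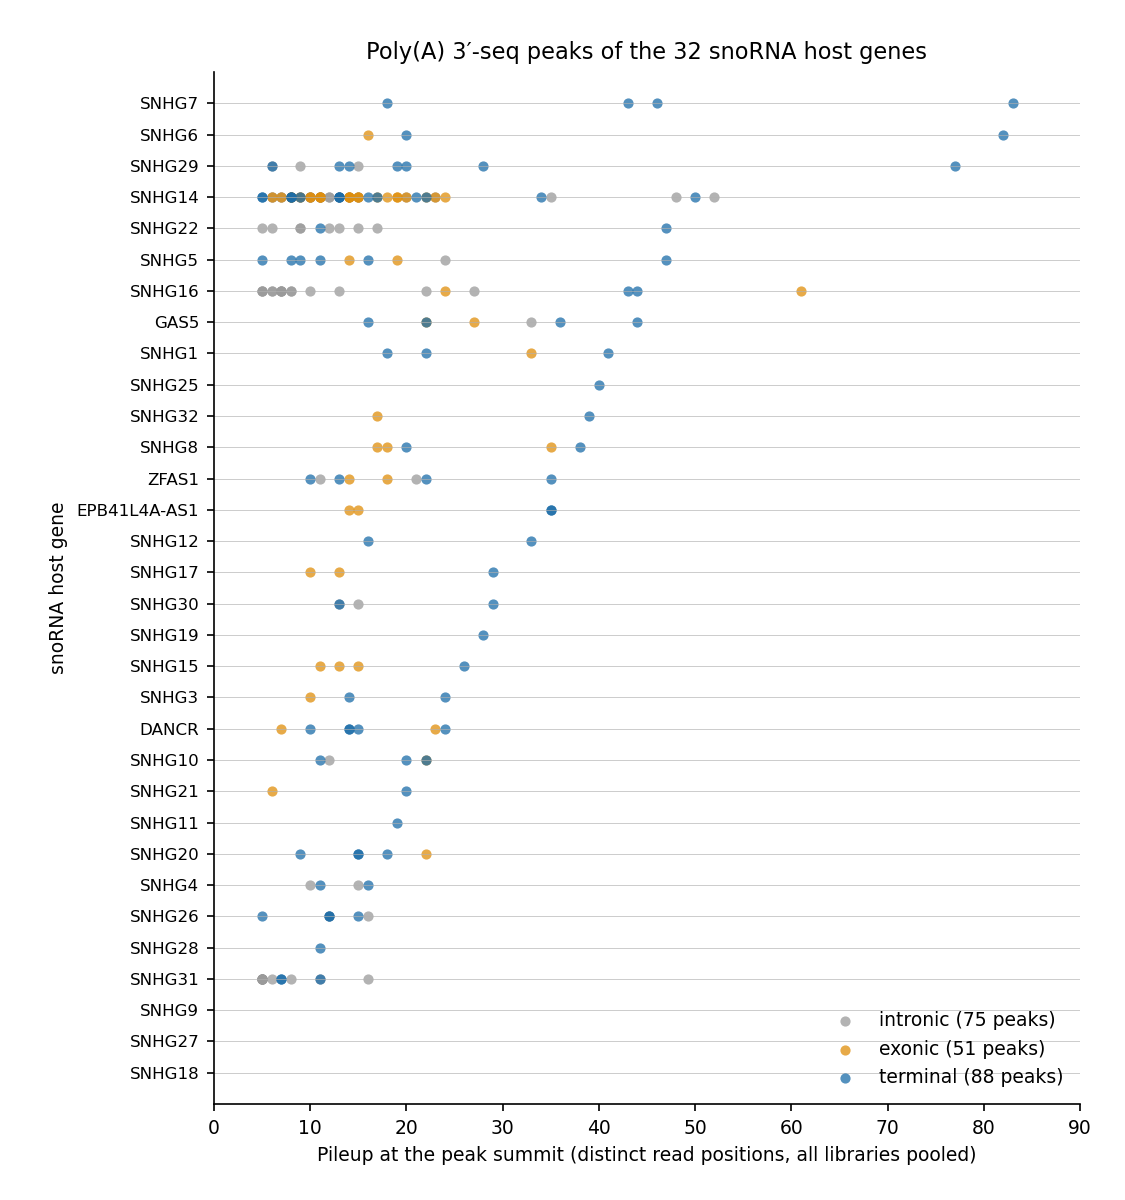
Pileup at the summit (horizontal axis, distinct read positions, all libraries pooled) of every peak of the 32 snoRNA host genes (vertical axis, ordered by their highest terminal peak). Points are peaks, coloured by class, and points that fall together look darker. The highest peak of 24 genes is terminal or tied with a terminal one, SNHG7 leads with 83, and the lowest 3 genes have no peak.

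The highest terminal peak of the 29 host genes had a median pileup of 33 and ranged from 11 to 83. For the 3891 other lncRNA genes with a terminal peak the median was 11, with a 99th percentile of 48 and a maximum of 100. For 13761 protein-coding genes the median was 23, and for 230 protein-coding snoRNA hosts it was 31. The hosts were grouped by cargo, setting aside the unnamed snoRNAs of SNHG1 and SNHG17. The 12 hosts of C/D snoRNAs alone included 11 with a terminal peak, with a median of 41. The 12 hosts of H/ACA snoRNAs alone included 10, with a median of 25. The 3 hosts of both kinds (GAS5, SNHG12 and SNHG25) had a median of 40 and the 4 hosts of Cajal body RNAs one of 21, and SNHG28, with an unnamed snoRNA, had 11. The groups overlap, from 15 to 82 for the C/D hosts and from 11 to 83 for the H/ACA hosts.

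**Figure D2:**
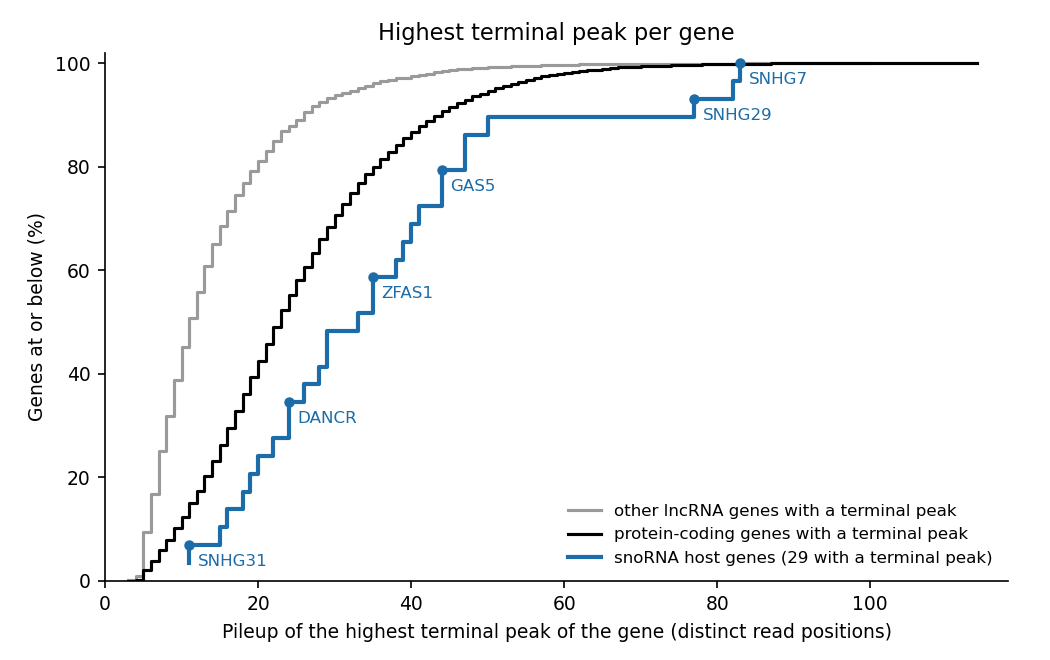
Cumulative share of genes (vertical axis, %) by the pileup of their highest terminal peak (horizontal axis, distinct read positions). Lines are the snoRNA host genes (29 with a terminal peak), the other lncRNA genes and the protein-coding genes, and labelled points are single host genes. The line of the host genes lies to the right of both others up to SNHG29 at 77.

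SNHG7, SNHG6 and SNHG29 stood apart from the other host genes. SNHG7, which carries the H/ACA snoRNAs SNORA17A and SNORA17B, had its highest peak at 83, with a fold over local background of 20.6 and a −log10 q-value of 80.7. SNHG6, host of the C/D snoRNA SNORD87, reached 82 at a fold of 25.2. SNHG29, host of SNORD49A, SNORD49B and SNORD65, reached 77 at a fold of 17.9. The next value was 50, at SNHG14. These 3 levels exceeded those of 99.9%, 99.9% and 99.8% of the other lncRNA genes with a terminal peak. All 3 summits also fall to a gene on the opposite strand, in its body or up to 600 bp past its 3′ end (DIPK1B at SNHG7, MCMDC2 at SNHG6 and LRRC75A at SNHG29), and since the list has no strand, the reads of such pairs cannot be told apart.

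SNHG22 and SNHG5 followed, each with a pileup of 47. The SNHG22 peak had the higher −log10 q-value (46.2 against 31.1), with a local background of 1.69 against 3.75. The SNHG22 peak lies over the Cajal body RNA SCARNA17 near the start of the gene and is described with the snoRNAs. The SNHG22 summit also falls to ENSG00000266997 on the opposite strand. The SNHG5 peak was 579 bp wide, ended short of the nearest annotated end and lies inside a readthrough gene of the same strand, ENSG00000271793. SNHG16, host of SNORD1A, SNORD1B and SNORD1C, had a terminal peak of 44 and a higher one of 61 in an exon, with ATTAAA 35 bp upstream of its 3′ edge. Both summits also fall to ENSG00000284526 on the opposite strand, and that of 44 to ST6GALNAC2 as well. SNHG25, host of SNORD104 and SNORA50C, had 1 peak of 40. It was 810 bp wide, longer than the gene itself (540 bp), and ran 367 bp past the annotated end.

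SNHG1, SNHG32 and SNHG8 had terminal peaks of 41, 39 and 38, each ending within 3 bp of an annotated transcript end. The SNHG32 summit also falls to ENSG00000285565 of the same strand, and the SNHG8 summit to PRSS12 on the opposite strand. SNHG1 carries 8 named C/D snoRNAs, SNHG32 carries SNORD48 and SNORD52, and SNHG8 carries SNORA24. At the other end of the order, SNHG28 and SNHG31 each had a highest terminal peak of 11. That of SNHG31 was followed by 10 A in the 10 genomic bases past its 3′ edge, a site where an oligo(dT) primer can anneal to the transcript itself, and it was the only A-rich site among the 29 highest terminal peaks.

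In this protocol a read starts at the cleavage site, so the 3′ edge of a peak on the strand of its gene approximates that site. Of the 29 highest terminal peaks, 15 had their 3′ edge within 5 bp of an annotated end, and all 15 carried the polyadenylation signal AATAAA within 100 bp upstream. On the strand of the gene, 12 hexamers were searched in order, AATAAA first, then ATTAAA, then AGTAAA, then TATAAA, then AATATA, then AATACA, then CATAAA, then GATAAA, then AATGAA, then ACTAAA, then AAGAAA and last AATAGA. Of the 29 peaks, 23 had a hexamer, 18 of them AATAAA, 2 ATTAAA, 2 AGTAAA and 1 ACTAAA. The hexamer started at a median of 27 bp upstream, a value that the choice of the nearest hit can draw toward the preset distance. The 6 without were those of SNHG14, SNHG22, SNHG5, SNHG12, SNHG30 and SNHG31. Of these 6, 5 were wider than 200 bp, as were 11 of the 23 with a hexamer. In 3 of the 6 (SNHG5, SNHG12 and SNHG30), AATAAA or ATTAAA lay inside the peak but farther than 100 bp from its 3′ edge.

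The sequences around 6 of these edges are shown because they hold the signal and the edge together. Each has the last 40 bases of the peak up to its 3′ edge and the next 20 bases, from GRCh38 on the strand of the gene, 5′ to 3′, with the AATAAA hexamer in capitals.
SNHG1, chr11:62851955-62852014, minus strand: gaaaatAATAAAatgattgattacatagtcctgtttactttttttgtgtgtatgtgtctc
SNHG32, chr6:31839728-31839787, plus strand: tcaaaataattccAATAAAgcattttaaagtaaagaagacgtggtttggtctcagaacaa
SNHG8, chr4:118279785-118279844, plus strand: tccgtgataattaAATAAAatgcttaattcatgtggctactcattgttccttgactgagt
ZFAS1, chr20:49289225-49289284, plus strand: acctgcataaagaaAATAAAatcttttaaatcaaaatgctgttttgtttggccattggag
EPB41L4A-AS1, chr5:112162277-112162336, plus strand: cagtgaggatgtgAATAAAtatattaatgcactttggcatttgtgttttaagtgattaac
DANCR, chr4:52714098-52714157, plus strand: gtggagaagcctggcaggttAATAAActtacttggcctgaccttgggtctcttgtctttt

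Over all 88 terminal peaks of the host genes, 59 had one of the hexamers (67.0%, 56.7% to 76.0%). The share was 74.3% for 4903 terminal peaks of other lncRNA genes and 78.2% for 27465 of protein-coding genes, and 49.9% for 18317 intronic peaks of other lncRNA genes searched over the same length. Searched upstream of the summit in place of the 3′ edge, the share for the host genes was 42%. The 15 terminal peaks of the host genes beside a snoRNA had a hexamer in 6 cases (40%, 19.8% to 64.3%), and the other 73 in 53 (72.6%, 61.4% to 81.5%).

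GAS5, a host of 10 C/D snoRNAs and of SNORA103, had 7 peaks. The highest, at 44, ended at an annotated transcript end, and its summit lay in SNORD81, the last snoRNA of the gene. That summit also falls to GAS5-AS1 on the opposite strand. A second terminal peak of 36 ended 64 bp past SNORD79, with ATTAAA 12 bp upstream. Exonic peaks of 27 and 22 lay over SNORD76 and over SNORA103, the latter also 55 bp from SNORD77. Downstream, an intronic peak of 33 and terminal peaks of 22 and 16 lay on longer annotated transcripts. The intronic peak had AATAAA 25 bp upstream of its edge, as did the main one. The local background at the main peak was 6.60, against a median of 1.84 over the 29 highest terminal peaks, and its −log10 q-value was 18.5, below the 20 that defines a strong peak here.

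ZFAS1, host of SNORD12, SNORD12B and SNORD12C, had 8 peaks. The highest (35, −log10 q-value 37.3) ended 4 bp past an annotated end that lies far downstream of the snoRNAs. Terminal peaks of 22, 13 and 10 marked other annotated ends, and that of 22 was followed by 9 A in 10 bases. All 3 snoRNAs had a peak beside them, of 11 at SNORD12C, 18 at SNORD12B and 14 at SNORD12.

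EPB41L4A-AS1, host of SNORA13, had 4 peaks. Its 2 terminal peaks were equal in pileup, at 35 each, with −log10 q-values of 26.2 and 25.8, and each carried AATAAA, 27 and 23 bp upstream of its edge. Both exonic peaks were lower, at 14 and 15. All 4 summits lie inside EPB41L4A on the opposite strand, whose reads cannot be told apart from these.

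DANCR, host of SNORA26, had 7 peaks. The highest terminal peak (24) ended exactly at an annotated end, with AATAAA 20 bp upstream, and an exonic peak of 23 had its summit 64 bp from SNORA26. Terminal peaks of 15, 14, 14 and 10 followed downstream, and an exonic one of 7. Those of 15 and 10 had no hexamer and were followed by 7 and 9 A in 10 bases. Of those of 14, 1 had no hexamer, and the other had AATAAA but ended 544 bp past the nearest annotated end. Every summit also lies in LINC01618, a lncRNA gene of the same strand, and falls to a gene on the opposite strand too, ERVMER34-1 among these.

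**Figure D3:**
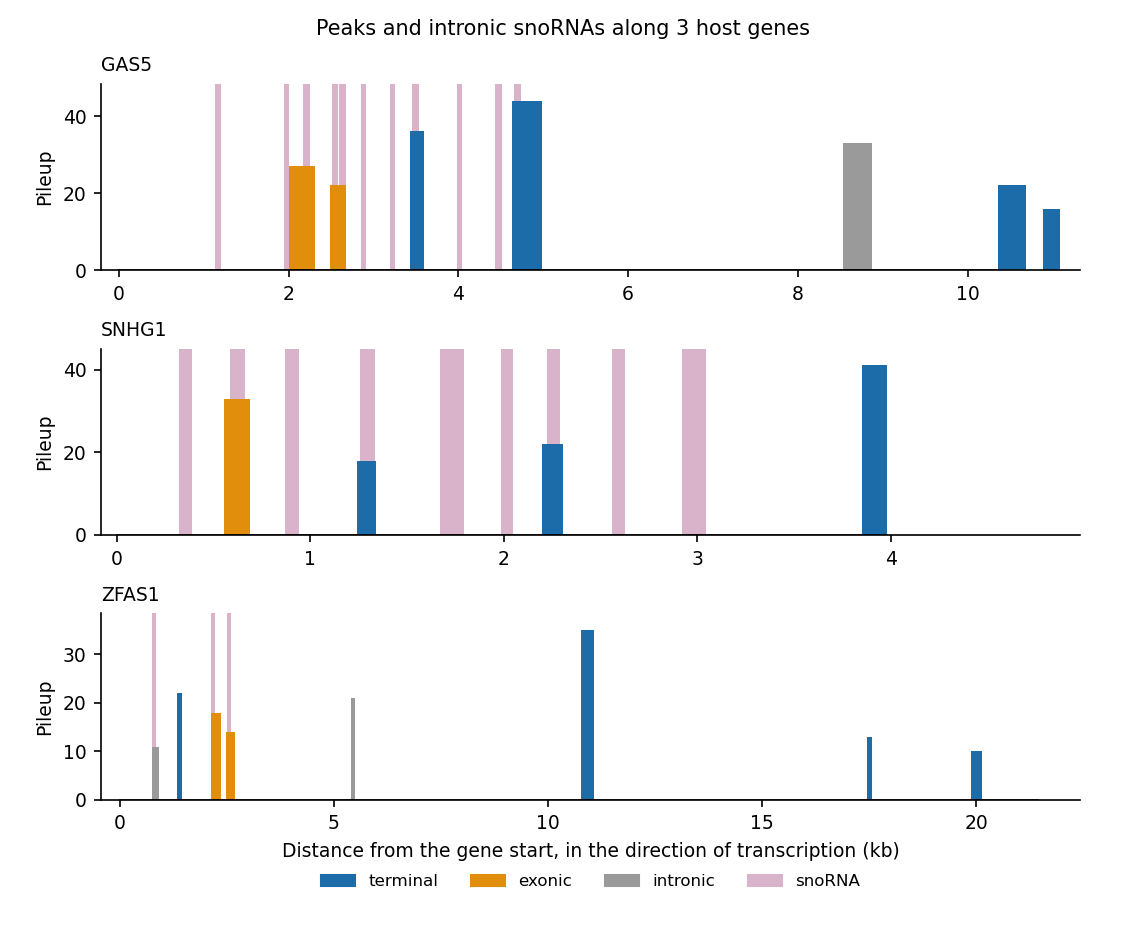
Peaks (coloured bars, width to scale, height the pileup at the summit in distinct read positions) and snoRNAs (pink bands) along GAS5, SNHG1 and ZFAS1 by distance from the gene start in kb. GAS5 and SNHG1 have their highest peak (44 and 41) past or at the last snoRNA, and ZFAS1 has its highest (35) downstream of all 3.

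Intronic peaks, whose summit lies outside the exons of every annotated transcript, made up 75 of the 214 (35.0%, 29.0% to 41.7%), beside 88 terminal (41.1%, 34.7% to 47.8%) and 51 exonic peaks. By the same rule, on all annotated transcripts, 71.4% of 25645 peaks were intronic in the other lncRNA genes and 71.1% of 148735 in protein-coding genes. These shares depend on the annotation, and the host genes have a median of 9 distinct transcript ends against 1 in other lncRNA genes. On 1 transcript per gene 77.1% of the host gene peaks were intronic and 9.35% terminal, and no share under that rule is given for the other sets. The 5 longest host genes with peaks (SNHG14, SNHG31, SNHG16, SNHG29 and SNHG22) held 64 of the 75, and 17 host genes with peaks had no intronic one. SNHG16, of 113 kb, had 15 with a median pileup of 7, and 6 of them carried AATAAA or ATTAAA upstream and were not A-rich downstream. SNHG31, of 153 kb, had 11 with a median of 5, of which 9 were A-rich, that is, followed by at least 7 A in 10 genomic bases. Over all members 29 of the 75 intronic peaks were A-rich (38.7%, 28.5% to 50%), against 36.5% in other lncRNA genes and 68.9% in protein-coding genes.

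SNHG14 held 66 of the 214 peaks (30.8%). It is the longest member, 442 kb on chromosome 15, and hosts 84 C/D snoRNAs, mostly in 2 tandem arrays of near-identical copies, SNORD116 and SNORD115, and it is expressed from the paternal allele of an imprinted region, in neurons as a transcript that runs on through UBE3A in the antisense direction. Its 15 terminal peaks were led by one of 50 (fold 16.7), beyond the SNORD116 array and before the SNORD115 array. SNORD64, in the proximal portion, had a peak of 23. Between 160 kb and 333 kb from the gene start there was no peak, and all 49 SNORD115 copies lie in this gap. Of the 20 peaks after it, 16 lie inside UBE3A, which is transcribed on the opposite strand, among them the highest of the gene (52). For these 16 the transcript of origin cannot be told apart. Other peaks share this limit, since only 30 of the 66 SNHG14 summits fall to no other gene. The peaks nearest the gene start, that at SNORD64 among them, also lie in ENSG00000214265, a gene of the same strand.

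**Figure D4:**
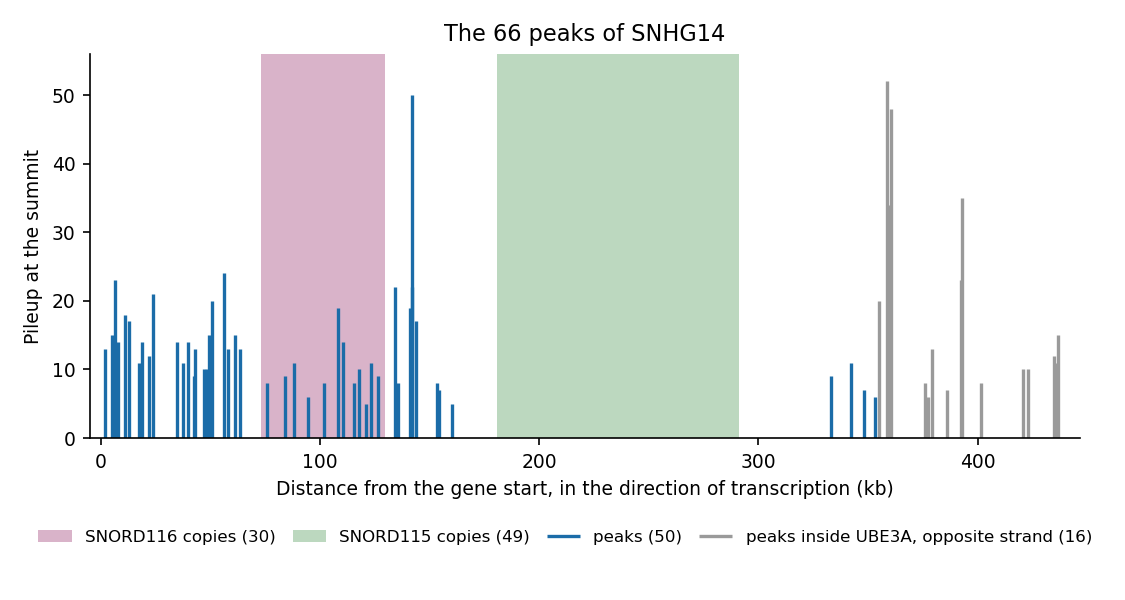
Pileup at the summit (vertical axis, distinct read positions) of the 66 peaks of SNHG14 by distance from the gene start (kb). Lines are peaks, grey where the summit also lies in UBE3A on the opposite strand, and bands are the SNORD116 and SNORD115 arrays. The 30 SNORD116 copies overlap a run of low peaks, the 49 SNORD115 copies lie in a gap, and the highest peaks are 50 before and 52 after that gap.

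The 32 host genes carry 153 annotated snoRNAs (122 C/D, 24 H/ACA, 4 Cajal body and 3 unnamed), taken from GENCODE 44 and RefSeq together. A peak summit lay within 100 bp of 37 of them (24.2%, 18.1% to 31.5%) in 17 of the hosts. For 352 snoRNAs in introns of protein-coding genes the share was 26.7%, and 5 of the peaks behind it are also counted for the host genes, since the snoRNA lies in both. By kind, 25 of 122 C/D snoRNAs (20.5%, 14.3% to 28.5%), 9 of 24 H/ACA snoRNAs (37.5%, 21.2% to 57.3%) and 3 of 4 Cajal body RNAs had such a peak. Among the array copies it was 9 of 30 for SNORD116 and 0 of 49 for SNORD115. The copies are near-identical and reads with more than 20 mapping positions were not kept, and the part of this limit in the count of 0 was not tested. Outside SNHG14 it was 27 of 69 (39.1%, 28.5% to 50.9%).

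These 35 peaks were 16.4% of the 214 (12% to 21.9%), and 4.12% of the bases of the host genes lie within 100 bp of a snoRNA. Both shares pool hosts of unlike length and peak density, and they were not compared gene by gene. Among hosts with a peak, peaks per kb ran from 0.0486 in SNHG28 to 1.85 in SNHG25. On all annotated transcripts 15 of the 35 counted as terminal, 16 as exonic and 4 as intronic. The 4 were a peak of 15 in SNHG4 at 54 bp from SNORA74D, one of 22 over SNORD1B in SNHG16, one of 11 over SNORD12C in ZFAS1 and one of 9 over SNORD116-5 in SNHG14. The SNHG4 peak was followed by 8 A in 10 bases and lies in MATR3, a gene of the same strand. These 4 were 5.33% of the 75 intronic peaks (2.09% to 12.9%), beside 2.12% of intron bases within the same distance.

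Of the 35 peaks beside a snoRNA, 18 (51.4%, 35.6% to 67.0%) had their 3′ edge 0 to 8 bp past the 3′ end of the snoRNA, with a median of 4.5 bp. They belonged to 11 C/D snoRNAs, 5 H/ACA snoRNAs and 2 Cajal body RNAs. None of the 18 was A-rich downstream, with at most 5 A in 10 bases. Their median width was 103 bp, close to the 100 bp to which each read was extended, and that of the other 17 was 204 bp. Their pileups ran from 5 at SNORD116-26 to 47 at SCARNA17, with a median of 13.5. Of the 18, 9 lie on SNORD116 copies, where reads with up to 20 mapping positions were kept and 1 molecule can count at several copies. Without SNHG14, 8 of 25 such peaks (32%) ended there.

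The ends of 9 snoRNAs from 9 of these hosts are shown, since it is here that peak and snoRNA coincide. Each has the last 30 bases of the snoRNA and the 15 bases that follow, from GRCh38 on the host strand. Capitals mark the box that defines the class near the 3′ end (CTGA, the D box, or ACA) and, after it, the base at the 3′ edge of the peak.
SNORA73B of SNHG3, chr1:28508733-28508777, plus strand: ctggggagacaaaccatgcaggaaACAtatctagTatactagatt
SNORA61 of SNHG12, chr1:28579749-28579793, minus strand: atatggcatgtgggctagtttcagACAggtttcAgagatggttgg
SNORA24 of SNHG8, chr4:118279291-118279335, plus strand: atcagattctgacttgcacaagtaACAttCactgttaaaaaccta
SNORA74A of SNHG4, chr5:139278950-139278994, plus strand: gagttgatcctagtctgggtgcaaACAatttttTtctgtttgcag
SNORA9 of SNHG15, chr7:44985363-44985407, minus strand: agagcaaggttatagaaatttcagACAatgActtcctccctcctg
SNORD28 of SNHG1, chr11:62854606-62854650, minus strand: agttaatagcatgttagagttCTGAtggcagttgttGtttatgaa
SCARNA13 of SNHG10, chr14:95533340-95533384, minus strand: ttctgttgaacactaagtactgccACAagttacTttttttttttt
SNORD64 of SNHG14, chr15:24985137-24985181, plus strand: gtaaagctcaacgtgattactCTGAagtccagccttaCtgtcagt
SCARNA17 of SNHG22, chr18:49814414-49814458, plus strand: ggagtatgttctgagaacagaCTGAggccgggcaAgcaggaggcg

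The peak ended 5 bp past SNORA73B (pileup 14), 4 bp past SNORA61 (16), at the last base of SNORA24 (18), 4 bp past SNORA74A (11) and 1 bp past SNORA9 (13). It ended 7 bp past SNORD28 (18), 8 bp past SNORD64 (23), 4 bp past SCARNA13 (22) and 5 bp past SCARNA17 (47). CTGA was searched in the last 15 bases and ACA in the last 10. Of 313 C/D snoRNAs in GENCODE 44, 87.2% hold CTGA there on their own strand and 6.39% on the opposite one, and of 214 H/ACA snoRNAs 82.2% hold ACA and 15.9% on the opposite strand. The peak at SCARNA17 is also the highest terminal peak of SNHG22, where a short transcript is annotated to end.

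**Figure D5:**
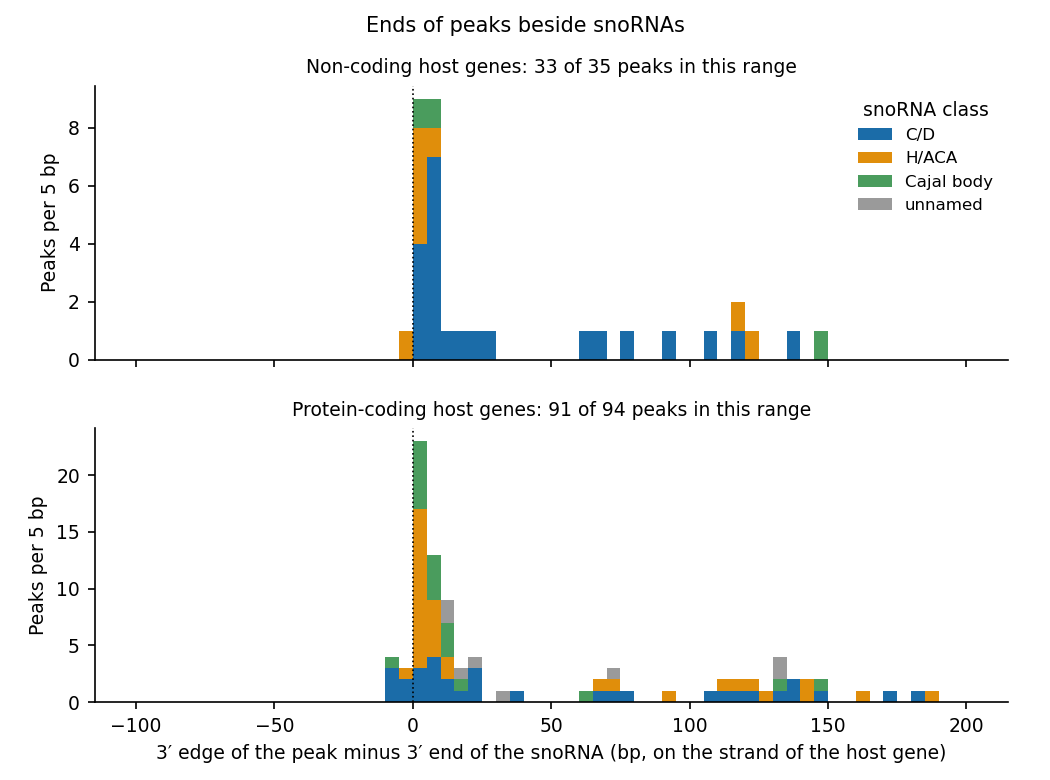
Distance from the 3′ end of the nearest snoRNA to the 3′ edge of each peak beside it (horizontal axis, bp on the strand of the host gene) against the number of peaks per 5 bp (vertical axis), coloured by snoRNA class. In both panels, for the non-coding hosts (33 of 35 peaks in range) and for the protein-coding hosts (91 of 94), the tallest bars stand 0 to 10 bp past the snoRNA.

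The other 17 peaks beside a snoRNA ended elsewhere. At SNORD81 the edge lay 251 bp past the snoRNA, at an annotated transcript end of GAS5, and at SNORA50C 372 bp past it, beyond the end of SNHG25. At SNORD30 and SNORD26 of SNHG1 and at SNORD52 of SNHG32 it lay 13, 28 and 22 bp past, with pileups of 22, 33 and 17. At SNORD12C, SNORD12 and SNORD12B of ZFAS1 it lay 78, 91 and 139 bp past.

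The proteins that bind or trim snoRNAs were represented in the same list. Of 22 genes for snoRNP proteins and their assembly factors, 21 had a terminal peak, and 18 had a strong one, beside 68.7% and 34.5% of all protein-coding genes. The highest pileups were 63 at ZNHIT3, an assembly factor of C/D particles, and 46 at DKC1, the pseudouridine synthase of H/ACA particles and itself a snoRNA host. The lowest were 20 at NUFIP1 and 21 at NAF1, both assembly factors, and ZNHIT6 had none. Of 15 genes of RNA decay and intron turnover, 14 had a terminal peak, 11 of them a strong one, beside the same background. MTREX, the helicase of the nuclear exosome, had 64 and UPF2, a factor of nonsense-mediated decay, 50. The lowest were XRN1 and SMG5 at 19 each, and TENT4B, which adds short A tails to exosome substrates, had none. The median over the list was 31 for the snoRNP genes and 26.5 for the decay genes, beside 23 for all protein-coding genes with a terminal peak.

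Among the protein-coding snoRNA hosts, terminal pileups reached 95 at TCP1, a subunit of the cytosolic chaperonin, and 78 at NOL11, a factor of ribosomal RNA transcription and processing. SNHG7, SNHG6 and SNHG29 lay in the same range.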

How the data were processed

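Poly(A) 3′-seq libraries (QuantSeq REV) from 10 samples of IMR-32 cells were analysed from the 1 peak list that the authors deposited. Per the labels and the methods of the study, the authors mapped reads to GRCh38 with STAR 2.5.1b, keeping up to 20 mapping positions, downsampled the libraries to the smallest, merged all of them and called peaks with MACS2 2.1.1 on reads extended to 100 bp. The deposited fold is the ratio of pileup to local background at the summit, the deposited p-value is given as −log10, and the deposited q-value is used as a score on the same scale. No strand and no value per library are in the list, so depth per library is unknown, no group or replicate was compared and no test was made. Sample labels gave the groups.

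Whole-number pileups and local backgrounds were solved from fold and p-value (largest deviation of the p-value 0.000168, on the −log10 scale, against a median of 0.0780 for the next best pileup), and the recovery and the motif search were tested on simulated data. Summits were classed by GENCODE 44 as terminal, exonic or intronic, in that order, on chromosomes 1 to 22, X and Y. RefSeq added 14 snoRNAs absent from GENCODE 44, its table has no strand, and they were placed on the host strand, where each held its D or ACA box. Each peak took the strand of the member, although 127 of 214 summits (59.3%) lie in, or up to 600 bp past, another gene too, 45 of them one of the same strand. Shares have 95% Wilson intervals. Values are given in full for the 12 members with the highest terminal pileup, GAS5, ZFAS1, EPB41L4A-AS1, DANCR, SNHG14 and members with an intronic summit within 100 bp of a snoRNA, for the 2 highest and 2 lowest genes of the snoRNP and decay lists and for the 3 highest protein-coding hosts, of which 1 is not reported here. Members, lists and rules were chosen with earlier results of these data known. The alternatives tried are given in the closing section. Python 3.11.15, pandas 2.3.3, numpy 2.4.6, scipy 1.17.1, pysam 0.24.0, matplotlib 3.10.9 and samtools 1.23.1 were used.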

Additional observations from a re-analysis of the deposited data

How the results depend on the processing

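No paired analysis was possible because every peak has 1 value from the merged libraries, so no replicate could be left out either. Of 92 values under other settings, 66 stayed within their interval or within 1.5 times the count, and 26 moved. When q-values of 20 or more on the −log10 scale were required, 32 peaks were left, 75% of them terminal and 9.38% intronic, 0% of the 3 intronic ones A-rich or beside a snoRNA (0% to 56.1%), and 4 snoRNAs had a peak. A terminal window of 100 bp on each side gave 29.4% terminal peaks. With 1 transcript per gene, 18 host genes had a terminal peak and 7 a strong one, 9.35% of peaks were terminal, 80% of those with a hexamer, 77.1% were intronic, and 20% of these lay beside a snoRNA. With only peaks in no other gene, 87 peaks in 17 host genes were left, 12 host genes had a terminal peak and 9 a strong one, 33.3% of peaks were terminal, and 22 snoRNAs had a peak. Without SNHG14, 49.3% of peaks were terminal, and 32% of the peaks beside a snoRNA ended 0 to 10 bp past it. Without the SNORD116 copies the latter was 34.6%. The hexamer share was 52.3% with AATAAA and ATTAAA only, 54.5% within 50 bp and 42% upstream of the summit. An A stretch of 25 bases followed 9.33% of intronic peaks. The cause of these shifts was not tested. The settings for peaks of any class beside a snoRNA and for snoRNA ends, the snoRNAs of GENCODE 44 alone and the 20% beside a snoRNA with 1 transcript per gene were chosen after seeing the data.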

Other observations

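The snoRNAs of protein-coding hosts were examined in the same way. Of the 94 peaks within 100 bp of such a snoRNA, 38 (40.4%, 95% Wilson interval 31.1% to 50.5%) had their 3′ edge 0 to 10 bp past the 3′ end of the snoRNA, with a median of 4 bp. They belonged to 19 H/ACA snoRNAs, 11 Cajal body RNAs, 7 C/D snoRNAs and 1 unnamed one. Of the 94 peaks, 5 are also peaks of the non-coding hosts, 3 of them among the 38 (SNORA73B, SNORA74A and SNORD64). Without these, 35 of 89 (39.3%) ended 0 to 10 bp past the snoRNA. Of the 38 peaks, 8 were A-rich downstream. At SCARNA10, in an intron of NCAPD2, a peak of 43 ended 1 bp past the RNA, and at SCARNA12, in an intron of PHB2, a peak of 36 ended 7 bp past it. At SCARNA9 of CEP295 a peak of 58 ended 13 bp past.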
